A study of Mus musculus with 8 samples.

Results

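The mRNAs of 7 genes of corticosteroid signalling were followed over the day in epithelial crypts of the mouse colon, out of 14247 genes in the deposited table. They were the receptor genes Nr3c1 and Nr3c2, the steroid-inactivating enzyme gene Hsd11b2, and the known glucocorticoid or aldosterone targets Sgk1, Fkbp5, Tsc22d3 and Scnn1a, taken by name from the table. The genes were chosen by their role in the pathway and with the time-of-day values of these same libraries in view, Sgk1 having been among the genes called in a 24 h fit, so their values over the day are given as a description, and nothing is read from how many of them passed a test. Each of the 7 passed the filter of a mean normalised read count of at least 10, as did 13503 genes in all.

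The libraries came from WT mice killed at Zeitgeber time (ZT) 0, 6, 12 and 18 h, with 2 libraries at each time point, and ZT0 is the time when the lights came on. The labels give the genotype WT for all 8 libraries and name no treatment, and the methods of the study place the mice on a C57BL/6 background at 2 to 4 months of age in 12 h of light and 12 h of dark, with food and water always at hand. The text of the study likewise calls the sequenced mice wild-type, while its methods name Bmal1 fl/fl mice as the controls of the animal experiments in general. Crypts were freed with EDTA and scraped from the large intestine, so that the material was a mixture of epithelial cells and whatever else came off with them. In such bulk RNA, fewer cells of a type and less RNA per cell cannot be told apart.

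Glucocorticoids are made by the adrenal gland in a daily rhythm that in nocturnal rodents is highest around the start of the dark phase. They bind the glucocorticoid receptor encoded by Nr3c1, which is held ready by HSP90 and its partner proteins, moves to the nucleus on binding, and acts at palindromic DNA elements near its target genes. Aldosterone acts through the mineralocorticoid receptor encoded by Nr3c2, which binds glucocorticoids as well, and cells that answer to aldosterone express HSD11B2, the enzyme that turns active glucocorticoid into an inert form. The distal colon is one such tissue, where aldosterone raises sodium uptake through the epithelial sodium channel ENaC.

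The 8 libraries held between 14722342 and 25159440 reads, recovered from the normalised values, and the share of normalised counts from mitochondrial genes ran from 6.68% to 22.2%. It was lowest at ZT12, with 6.68% and 7.85% against 12.2% and 19.8% at ZT0, 19.2% and 19.4% at ZT6, and 22.2% and 9.80% at ZT18. The log2 fold changes of ZT12 against ZT0 in the 7 genes ran from -0.02 for Tsc22d3 to 0.77 for Fkbp5. With a scaling set outside the mitochondrial genome they ran from -0.05 to 0.73 for the same genes. The 10 epithelial markers, all present in the table, summed to between 282612 and 378878 normalised counts per library and none was at 0. Stromal and immune markers were lower and uneven. The 6 smooth muscle markers in the table, of 8 looked for, summed to 3871 in ZT12 replicate 1 and 236 in ZT12 replicate 2, against 7.39 to 94.2 in the 6 libraries of the other times. Acta2 and Des were each at 0 in 3 libraries. The 8 fibroblast markers summed to 2726 in ZT12 replicate 1 and 846 in ZT0 replicate 2, and to between 188.5 and 296 in the other 6 libraries. The 7 B and plasma cell markers in the table, of 8, summed to 2781 in ZT0 replicate 2 and 1107 in ZT12 replicate 1, against 141 to 509 elsewhere, and the 7 myeloid markers in the table, of 8, summed to 2617 in ZT0 replicate 2 against 743 to 1277 elsewhere. ZT0 replicate 2 and ZT12 replicate 1 therefore stood apart in these lists, and values without both are given where they bear on a gene. The 7 T cell markers summed to 22.8 and 187 at ZT0 and 45.6 and 46.8 at ZT6. At ZT12 they were 111 and 116, and at ZT18 135 and 212. The 8 stem and proliferating markers went from 8917 and 7343 at ZT0 to 4564 and 5145 at ZT18, with 5172 to 6712 between. The 3 endothelial markers in the table, of 6, were lowest at ZT18, with 99.1 and 48.3 against 161 to 410 elsewhere. The part of these cell types in the values of the 7 genes was not tested. The clock gene Dbp served as a check of the times, with a fitted amplitude of 3.07 on the log2 scale, a peak at 10.6 h and an adjusted p of 4.01e-05 in limma.

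**Figure D1:**
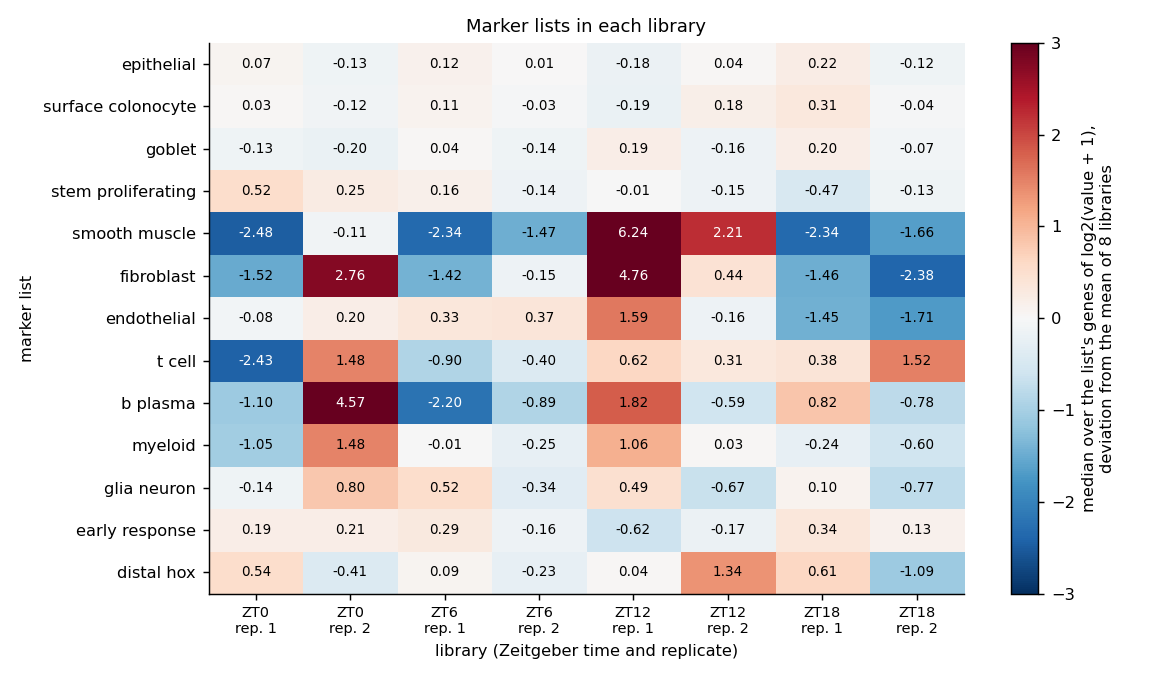
Median deviation of each marker list from its mean over the 8 libraries, on the log2(value + 1) scale, with libraries in columns, lists in rows and colours that stop at 3. Smooth muscle markers lie at 6.24 and fibroblast markers at 4.76 in ZT12 replicate 1, and B and plasma cell markers at 4.57 in ZT0 replicate 2, while the epithelial list stays between -0.18 and 0.22.

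Per kilobase of annotated exon, Hsd11b2 was the most abundant of the 7 mRNAs. Averaged over the 8 libraries it reached 2873 normalised counts per kilobase, with a range of 2187 to 4479. Sgk1 followed at 1073 and Scnn1a at 931, with ranges of 535 to 1922 and 653 to 1444 that overlap. The mineralocorticoid receptor gene Nr3c2 averaged 427 per kilobase and the glucocorticoid receptor gene Nr3c1 215, so that in the colonic crypt the mRNA of the aldosterone receptor was the more abundant, in each of the 8 libraries. Tsc22d3 averaged 303 and Fkbp5 299 per kilobase, next to each other in the order and with overlapping ranges of 168 to 556 and 169 to 470. Among the genes tested with an exon length, 98.1% lay below Hsd11b2 and 73.1% below Nr3c1 on this scale. Read depth was ample for each of them, the lowest being 672 reads of Tsc22d3 in a ZT6 library.

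Sgk1, the kinase induced by both corticosteroids that keeps ENaC at the cell surface, was lowest in the middle of the light phase and highest in the middle of the dark phase. Its normalised read counts were 3760 and 4285 in the ZT0 libraries, 2622 and 2832 in those of ZT6, 4265 and 6942 in those of ZT12 and 7944 and 9421 in those of ZT18. The ZT18 libraries lay above all others and the ZT6 libraries below all others, while ZT0 and ZT12 overlapped. The means were 8683 ± 1044 at ZT18 and 2727 ± 149 at ZT6 (SD, n = 2), a 3.18-fold difference with a log2 fold change of 1.67 (SE 0.24). A 24 h cosine fitted to the log2 values had an amplitude of 0.86, which corresponds to a 3.30-fold distance from trough to peak, and a peak at 17.0 h. Leaving out each library in turn moved the amplitude between 0.80 and 0.91 and the peak between 16.4 and 17.6 h. At ZT12 the result depended on the library. The log2 fold change of ZT12 against ZT0 was 0.44 (SE 0.24) with both, 0.79 once ZT12 replicate 1, which held the smooth muscle RNA, was left out, 0.09 without ZT12 replicate 2, and 0.88 without the 2 libraries that stood apart.

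The Sgk1 gene lies on chromosome 10 (chr10:21882184-21999903, plus strand, GRCm38) and has 6 start sites among the RefSeq promoter windows, each of which covers 250 bases before a start to 50 after it. These windows were searched on both strands for the palindromic glucocorticoid response element AGAACANNNTGTTCT, its single arm AGAACA, the E-box CACGTG bound by the clock activators, and the D-box TTATGTAA bound by DBP and its relatives. An arm is part of every complete element, and the other motifs were counted wherever they fell. The fifth Sgk1 window holds a complete element, 189 to 175 bases before its start site (chr10:21993701-21993715). That position is inside the annotated gene, outside every annotated exon, and 951 bases before the start site of the sixth window. The complete element is in 3 of 32851 windows of all genes (0.00913%), the others belonging to Acnat2 and Gm35041. The window is shown because it is the only one of the 11 windows of these genes with the complete element; capitals mark the motifs, the first run being an E-box that shares 2 bases with an arm and the second the complete element. The window spans chr10:21993640-21993939 on the plus strand.
Sgk1: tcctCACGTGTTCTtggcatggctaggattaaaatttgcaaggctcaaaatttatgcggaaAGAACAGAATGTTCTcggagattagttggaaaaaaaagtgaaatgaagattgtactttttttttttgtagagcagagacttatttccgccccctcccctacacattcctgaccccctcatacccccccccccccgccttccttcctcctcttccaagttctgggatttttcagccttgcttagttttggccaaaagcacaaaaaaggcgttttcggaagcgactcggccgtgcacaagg

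Fkbp5, the co-chaperone that lowers the hormone affinity of the glucocorticoid receptor and is itself induced by it, was higher in the dark phase than in the light phase. Its normalised read counts were 1599 and 2526 in the ZT0 libraries, 1899 and 2022 in those of ZT6, 3825 and 3063 in those of ZT12 and 3266 and 4448 in those of ZT18. Each of the 4 libraries at ZT12 and ZT18 lay above each of the 4 at ZT0 and ZT6, and within either phase the time points overlapped. The means were 3444 ± 538 at ZT12 and 2063 ± 655 at ZT0 (SD, n = 2), a 1.67-fold difference with a log2 fold change of 0.77 (SE 0.25). Without ZT0 replicate 1 that change was 0.44 and without ZT0 replicate 2 it was 1.10. Between ZT18 and ZT6 the log2 fold change was 0.96 (SE 0.25), and the fitted curve had an amplitude of 0.61 and a peak at 15.4 h, between 14.9 and 16.2 h when each library was left out.

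Fkbp5 lies on chromosome 17 (chr17:28399094-28517527, minus strand). Its single promoter window holds no complete response element and no arm in these 300 bases. It holds an E-box 169 to 164 bases before the start site, inside the annotated gene and outside its annotated exons, a motif found in 7.15% of all windows. The window spans chr17:28486100-28486399 on the minus strand and is shown for comparison with Sgk1, with the E-box in capitals.
Fkbp5: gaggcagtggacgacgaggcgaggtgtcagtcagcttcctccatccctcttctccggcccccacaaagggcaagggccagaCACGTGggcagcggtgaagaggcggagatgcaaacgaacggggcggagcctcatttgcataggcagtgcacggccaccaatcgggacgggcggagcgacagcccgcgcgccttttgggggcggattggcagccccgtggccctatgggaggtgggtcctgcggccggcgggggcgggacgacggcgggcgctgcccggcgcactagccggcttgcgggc

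Tsc22d3, which encodes the anti-inflammatory protein GILZ and is induced by glucocorticoids, had its highest values at ZT18 and its lowest at ZT6. The values were 1467 and 958 in the ZT0 libraries, 848 and 731 in those of ZT6, 918 and 1491 in those of ZT12 and 2412 and 1705 in those of ZT18. The ZT18 libraries lay above all others, the ZT6 libraries lay below all others, and the libraries of ZT0 and ZT12 overlapped. The means of 2059 ± 500 at ZT18 and 789 ± 82.4 at ZT6 (SD, n = 2) stood 2.61-fold apart, with a log2 fold change of 1.36 (SE 0.29). ZT12 and ZT0 differed by -0.02 (SE 0.29), -0.37 if ZT12 replicate 2 was left out and 0.33 if ZT12 replicate 1 was. The fitted amplitude was 0.68 with a peak at 18.1 h. Fkbp5 and Tsc22d3 thus shared the high ZT18 level of Sgk1, while at ZT12 Fkbp5 was near its ZT18 level and Tsc22d3 was near its ZT0 level. Of the 3 Tsc22d3 windows on the X chromosome, 1 holds a response element arm, 185 to 180 bases before the start site and outside the annotated gene. Such arms are in 19.0% of all windows. The Tsc22d3 window spans chrX:140600473-140600772 on the minus strand and has the arm in capitals.
Tsc22d3: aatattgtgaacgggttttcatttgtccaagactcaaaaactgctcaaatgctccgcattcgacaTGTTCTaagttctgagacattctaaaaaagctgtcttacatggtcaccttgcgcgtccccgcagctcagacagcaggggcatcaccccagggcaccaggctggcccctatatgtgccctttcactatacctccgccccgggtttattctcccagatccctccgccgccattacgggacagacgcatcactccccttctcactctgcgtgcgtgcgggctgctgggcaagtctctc

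**Figure D2:**
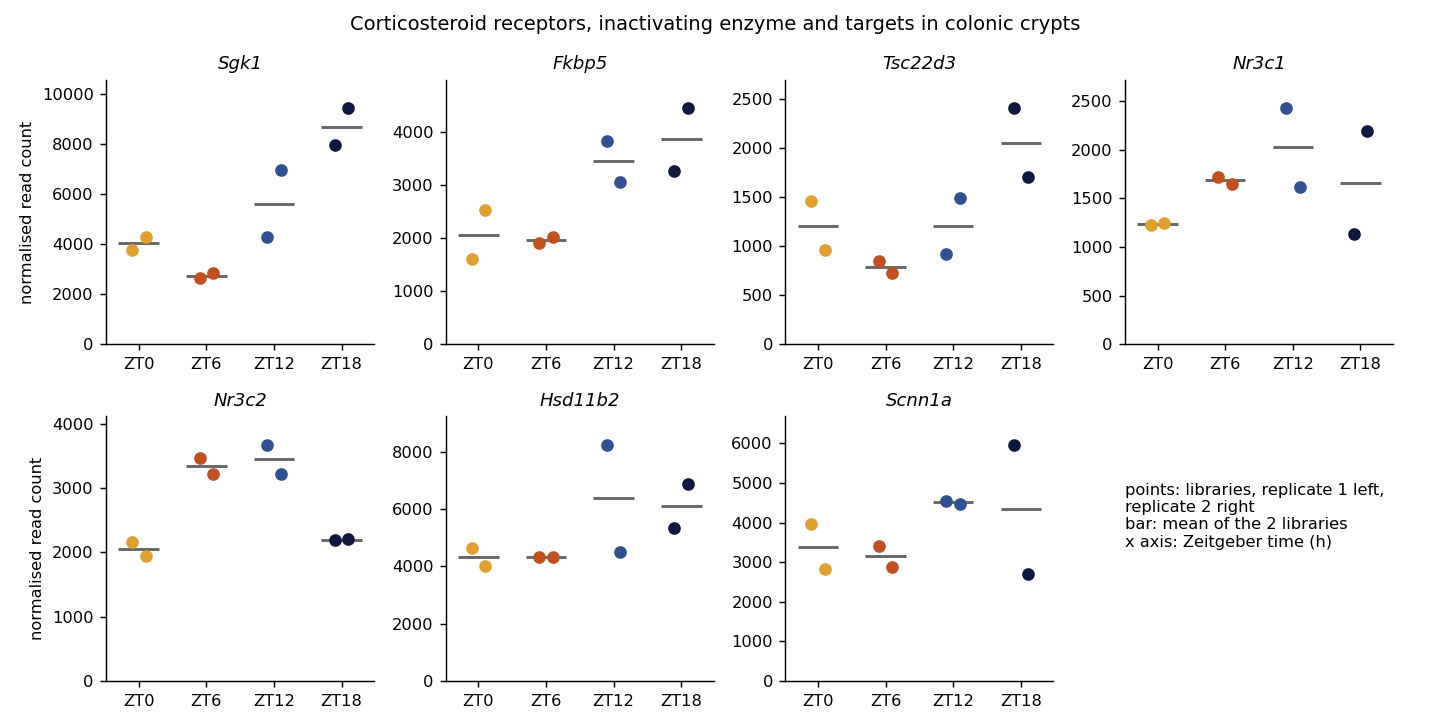
Normalised read counts of the 7 genes in each library (points) against Zeitgeber time, with the mean of the 2 libraries as a bar and axes from 0. Sgk1 and Tsc22d3 are lowest at ZT6 and highest at ZT18, Fkbp5 is higher at ZT12 and ZT18, and Nr3c2 is higher at ZT6 and ZT12.

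The genes whose log2 values ran most like those of the 3 targets were sought among 11088 genes with a mean of at least 50, as Pearson's r over the same 8 libraries, which share one normalisation. For Sgk1 they were Tmem184b (r = 0.97), Calr (0.96) and Zfp830 (0.95). For Fkbp5 they were Ppp1r15b (0.99), Trim6 (0.96) and Brip1os (0.94). For Tsc22d3 they were Donson (0.97), Slfn9 (0.97) and Mindy3 (0.97). These likenesses are in shape and not in size. Calr, the endoplasmic reticulum chaperone calreticulin, went from 6537 in a ZT6 library to 11389 in a ZT18 library, and Tmem184b only from 684 to 975. An r above 0.9 was shared by 18 genes for Sgk1, 37 for Fkbp5 and 40 for Tsc22d3. Among the members, Sgk1 ran with Tsc22d3 at r = 0.84 and with Fkbp5 at r = 0.78, and Fkbp5 with Tsc22d3 at r = 0.40. Fkbp5 ran closer to Hsd11b2 (r = 0.75) and Nr3c1 (r = 0.52) than to Tsc22d3. Over all pairs of members r went from -0.55 for Tsc22d3 with Nr3c2 to the 0.84 of Sgk1 with Tsc22d3.

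The receptor genes had other orders of the time points. Nr3c2, which encodes the mineralocorticoid receptor, had values of 2162 and 1949 in the ZT0 libraries, 3473 and 3213 in those of ZT6, 3674 and 3221 in those of ZT12 and 2193 and 2207 in those of ZT18. Its ZT6 and ZT12 libraries lay above all those of ZT0 and ZT18, with means of 3343 ± 184 at ZT6 and 2200 ± 9.64 at ZT18 (SD, n = 2). ZT6 and ZT12 overlapped. Between ZT0 and ZT12 the log2 fold change was 0.74 (SE 0.16), and 0.57 without the 2 libraries that stood apart. Between ZT6 and ZT18 it was -0.60 (SE 0.16). The fitted amplitude was 0.48 and the peak at 9.4 h, between 9.2 and 9.6 h when each library was left out. The Nr3c2 gene lies on chromosome 8 (chr8:76899442-77245012, plus strand), where the antisense transcript Gm10649 covers 247 of its exonic bases, and how the authors' counting used the strand is not given in the sources used here. Its 1 promoter window holds none of the motifs searched.

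Nr3c1, which encodes the glucocorticoid receptor, was less regular. The values were 1223 and 1252 in the ZT0 libraries, 1726 and 1646 in those of ZT6, 2431 and 1621 in those of ZT12 and 1130 and 2198 in those of ZT18. The ZT6 libraries and the ZT12 libraries lay above those of ZT0, and of the ZT18 libraries replicate 1 lay below all others and replicate 2 below ZT12 replicate 1 alone. The mean at ZT18 was 1664 ± 755 (SD, n = 2), and the log2 fold change of ZT18 against ZT6 was -0.10 (SE 0.30), running from -0.58 without ZT18 replicate 2 to 0.38 without ZT18 replicate 1. For ZT12 against ZT0 it was 0.68 (SE 0.30), and 0.41 without the 2 libraries that stood apart. It was 0.39 without ZT12 replicate 1, where Nr3c1 was highest and where the fibroblast and smooth muscle markers were high. Their part in the Nr3c1 value was not tested. The fitted amplitude was 0.34 and the peak at 11.5 h.

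Hsd11b2 was even in the light phase and uneven in the dark phase. The values were 4630 and 4025 in the ZT0 libraries, 4340 and 4335 in those of ZT6, 8241 and 4496 in those of ZT12 and 5338 and 6887 in those of ZT18. Both ZT18 libraries lay above the 4 light-phase libraries, and of the ZT12 libraries replicate 1 lay above all others while replicate 2 was within the range of ZT0. The log2 fold change was 0.48 (SE 0.27) for ZT18 against ZT6 and 0.50 (SE 0.27) for ZT12 against ZT0, the latter being 0.06 without ZT12 replicate 1, 0.93 without ZT12 replicate 2 and -0.04 without the 2 libraries that stood apart. The former was 0.30 once ZT18 replicate 2 was left out and 0.67 once ZT18 replicate 1 was. The short gene lies on chromosome 8 (chr8:105518755-105523988, plus strand), with 1840 exonic bases. The smooth muscle and fibroblast markers were highest in the same library as Hsd11b2, ZT12 replicate 1, and their part in that value was not tested.

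Scnn1a, the alpha subunit of ENaC, had values of 3970 and 2815 in the ZT0 libraries, 3420 and 2884 in those of ZT6, 4548 and 4470 in those of ZT12 and 5966 and 2698 in those of ZT18. The ZT12 libraries lay above those of ZT0 and ZT6, and ZT18 held both the highest and the lowest value of all. The log2 fold change of ZT12 against ZT0 was 0.43 (SE 0.33), from 0.18 without ZT0 replicate 2 to 0.68 without ZT0 replicate 1. It was 0.17 without the 2 libraries that stood apart. That of ZT18 against ZT6 was 0.35 (SE 0.33), from -0.22 without ZT18 replicate 1 to 0.93 without ZT18 replicate 2. The genes of distal position in the gut ran unevenly between the same libraries. The 5 distal Hox genes, all in the table with none at 0, summed to 4462 to 8663 at ZT0, 5591 to 5946 at ZT6, 5362 to 9559 at ZT12 and 3385 to 9272 at ZT18. Hoxb13, the most abundant, was 6927 in ZT18 replicate 1 and 2508 in ZT18 replicate 2, and 6405 and 3235 in the ZT0 libraries. At these times Hoxb13, Scnn1a and Tsc22d3 were all higher in replicate 1. At ZT6 Hoxb13 was lower in replicate 1, with 3870 against 4086, while Scnn1a and Tsc22d3 were higher there. At ZT12 Hoxb13 was higher in replicate 2, with 5682 against 3538, as was Tsc22d3, while Scnn1a was slightly lower there. Nr3c1 and Hsd11b2 ran the other way from Hoxb13 at ZT12 and ZT18, higher in replicate 1 at ZT12 and in replicate 2 at ZT18. At ZT6 both were slightly higher in replicate 1, where Hoxb13 was lower. At ZT0 Hsd11b2 was higher in replicate 1 like Hoxb13, and Nr3c1 was slightly lower there. Fkbp5 ran the other way from Hoxb13 at ZT0, ZT12 and ZT18, and like Hoxb13 was slightly lower in replicate 1 at ZT6. The part of the site sampled along the colon in the Scnn1a, Fkbp5, Tsc22d3, Nr3c1 and Hsd11b2 values was not tested. Scnn1a lies on chromosome 6 (chr6:125320659-125344943, plus strand).

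**Figure D3:**
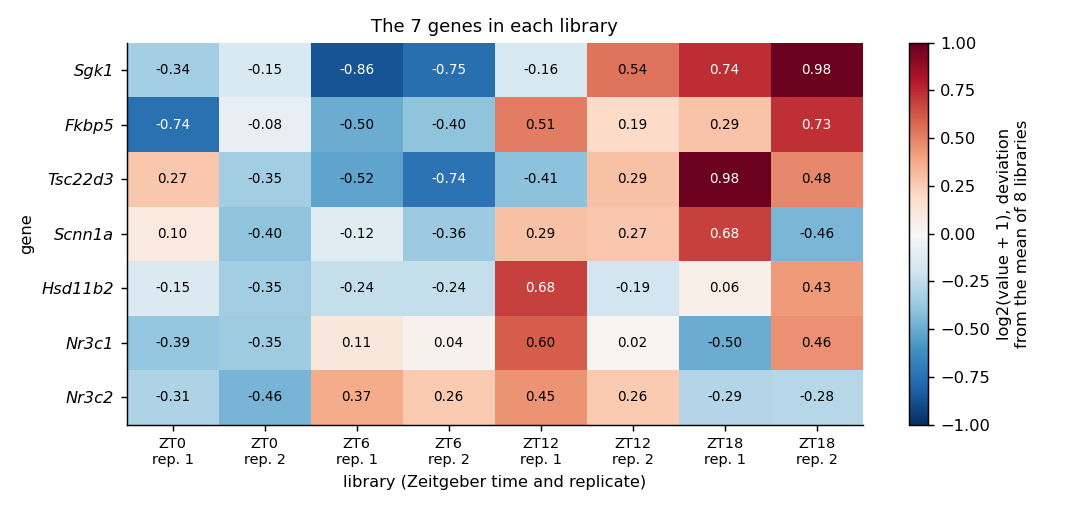
Deviation of each gene from its own mean over the 8 libraries, on the log2(value + 1) scale, with libraries in columns. Sgk1 goes from -0.86 in a ZT6 library to 0.98 in a ZT18 library, Nr3c2 is positive in the 4 libraries of ZT6 and ZT12, and Scnn1a is 0.68 and -0.46 in the 2 libraries of ZT18.

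Across all genes tested, the 24 h fit called 16 of 13503 (0.118%) at an adjusted p under 0.05, and 1 of the 7 members, Sgk1, was among them. The Sgk1 call was made in 6 of 20 other fits and in 1 of the 8 fits without a library, that without ZT12 replicate 1; it was absent without either ZT0 library, either ZT6 library, ZT12 replicate 2 or either ZT18 library. DESeq2 called 4 members in the 24 h fit and 1.62% of the 11670 genes given an adjusted p. The test over the 4 time points called 12 genes (0.0889%) and 0 of the members by limma or edgeR, and 4 members beside 1.61% of all genes by DESeq2. ZT12 against ZT0 called 9 genes (0.0667%) and ZT18 against ZT6 called 6 (0.0444%), with 0 members in limma and edgeR for each. DESeq2 called 1 member beside 1.24% of the 10885 genes given an adjusted p in the former. In the latter it called 2 beside 0.504% of all genes. An unadjusted p under 0.05 in limma was held by 4 members in the 24 h fit and 9.15% of all genes, 4 and 7.03% over the 4 time points, 2 and 9.96% for ZT12 against ZT0, and 4 and 6.71% for ZT18 against ZT6. The members had been chosen with these time courses in view, so nothing is read from any of these counts. The libraries of ZT12 and ZT0 did not overlap in 4 of the 7 genes, beside 41.1% of all genes, and those of ZT18 and ZT6 in 4 higher and 1 lower, beside 38.0% of all genes. The ZT12 against ZT0 and ZT18 against ZT6 comparisons share no library, though they share the estimate of the spread.

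To place the 7 genes in their pathway, 83 companion genes in 6 lists were taken, of which 76 were in the table and were tested. The other 7 were not analysed here. For ZT12 against ZT0 the median log2 fold change was 0.13 over the 76 genes and 0.01 over all genes, and for ZT18 against ZT6 it was 0.17 and -0.01. The 0.13 fell to 0.05 without ZT0 replicate 1. Libraries did not overlap in 21 genes higher and 15 lower at ZT12, beside 20.7% and 20.3% of all genes, and in 26 higher and 11 lower at ZT18, beside 19.2% and 18.8%. Calls were few. Of the 76 genes, 1 was called in the 24 h fit (Per2), 1 between ZT0 and ZT12 (Per1) and 1 between ZT6 and ZT18 (Per2).

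The list of glucocorticoid-induced genes held both of these, Per1 and Per2, clock repressors reported elsewhere to carry glucocorticoid response elements. In the promoter windows searched here, the complete element was in 0 of 77 windows, which covered 59 of the 83 companion genes. Its arm was in 16.9% of those windows, beside 19.0% of all windows. Per1 was 392 and 265 in the ZT0 libraries, 338 and 403 in those of ZT6, 1570 and 1170 in those of ZT12 and 574 and 563 in those of ZT18. It rose from ZT0 to ZT12 by 2.07 on the log2 scale (SE 0.25, adjusted p = 0.0269, limma), higher in 2 of 2 libraries. That call was lost without ZT0 replicate 2, either ZT6 library or either ZT12 library, where the adjusted p went up to 0.185, and without the 2 libraries that stood apart it was 0.492. Per2 was 487 and 716 in the ZT0 libraries, 411 and 302 in those of ZT6, 2068 and 1692 in those of ZT12 and 1599 and 1923 in those of ZT18. Fitted peaks were at 13.1 h for Per1, 15.4 h for Fkbp5, 17.0 h for Sgk1 and 18.1 h for Tsc22d3. The 24 h amplitude of Per2 was 1.42 with a peak at 15.6 h (adjusted p = 0.0123, limma). This call was lost without ZT0 replicate 1 (0.0627), ZT6 replicate 1 (0.101) or ZT12 replicate 2 (0.0895). Per2 rose from ZT6 to ZT18 by 2.31 (SE 0.25, adjusted p = 0.0151, limma), higher in 2 of 2 libraries, and the call held in the fits without either ZT0 library and was lost without each of the other 6, with adjusted p up to 0.351.

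The other 20 of the 22 tested genes of that list passed no test. The median of the list was 0.14 from ZT0 to ZT12, and 0.04 without ZT12 replicate 2. From ZT6 to ZT18 it was 0.10, which turned to -0.09 without ZT18 replicate 2 and was 0.20 without ZT18 replicate 1, and its genes were split evenly at ZT18 against ZT6, with 11 means higher and 11 lower. The means of 3 classical targets were ordered differently over the day. With 2 libraries per time point and overlapping neighbours, whether their time courses differ cannot be decided. Klf9, a transcription factor, had its highest mean at ZT12 with 1980 and 1565, overlapping the 1492 and 1568 of ZT6. Dusp1, a phosphatase that limits MAP kinases, had its lowest mean at ZT12 with 393 and 580, overlapping the ZT6 libraries, and Lpin1, a phosphatidate phosphatase, had its highest mean at ZT6 with 203 and 298, overlapping the ZT12 libraries. These 3 were picked after their values were seen.

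Among 19 genes of sodium transport and its control, 0 were called in any of the 3 tests by limma, with 7 at an unadjusted p under 0.05 between ZT0 and ZT12 (9.96% of all genes), 1 between ZT6 and ZT18 (6.71%) and 7 in the 24 h fit (9.15%). By edgeR 0 were called. DESeq2 called 3 in the 24 h fit (1.62% of genes given an adjusted p) and 3 between ZT0 and ZT12 (1.24%). Slc9a3 was among them in each. From ZT0 to ZT12 the median log2 fold change was 0.24, 15 of 19 genes having the higher mean at ZT12, and libraries did not overlap in 9 higher and 1 lower, beside 20.7% and 20.3% of all genes. The median ran from 0.18 to 0.24 over the other scalings and pseudocounts. Slc9a3, the sodium-hydrogen exchanger NHE3 of the brush border and a glucocorticoid-responsive gene, was 4386 and 4351 in the ZT0 libraries, 7773 and 8096 in those of ZT6, 12298 and 9862 in those of ZT12 and 9387 and 7955 in those of ZT18. Its log2 fold change of ZT12 against ZT0 was 1.33 (SE 0.19) with an adjusted p of 0.0594 in limma. That adjusted p was 0.338 in a limma fit of only the libraries compared. Scnn1g, the gamma subunit of ENaC, was low in all libraries, with 73.5 and 19.6 in the ZT0 libraries, 50.5 and 33.7 in those of ZT6, 214 and 129 in those of ZT12 and 87.2 and 58.7 in those of ZT18. Its change of 2.10 (SE 0.62) had an adjusted p of 0.381 and ran from 1.17 without ZT0 replicate 2 to 3.02 without ZT0 replicate 1. The beta subunit Scnn1b, named after its values were seen, was 102 and 113 in the ZT0 libraries, 291 and 174 in those of ZT6, 314 and 217 in those of ZT12 and 239 and 243 in those of ZT18, with a change of 1.27 (SE 0.32) and an adjusted p of 0.343. All 3 subunit genes had their lower mean at ZT0 than at ZT12, and neither of the rarer subunits passed the test.

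**Figure D4:**
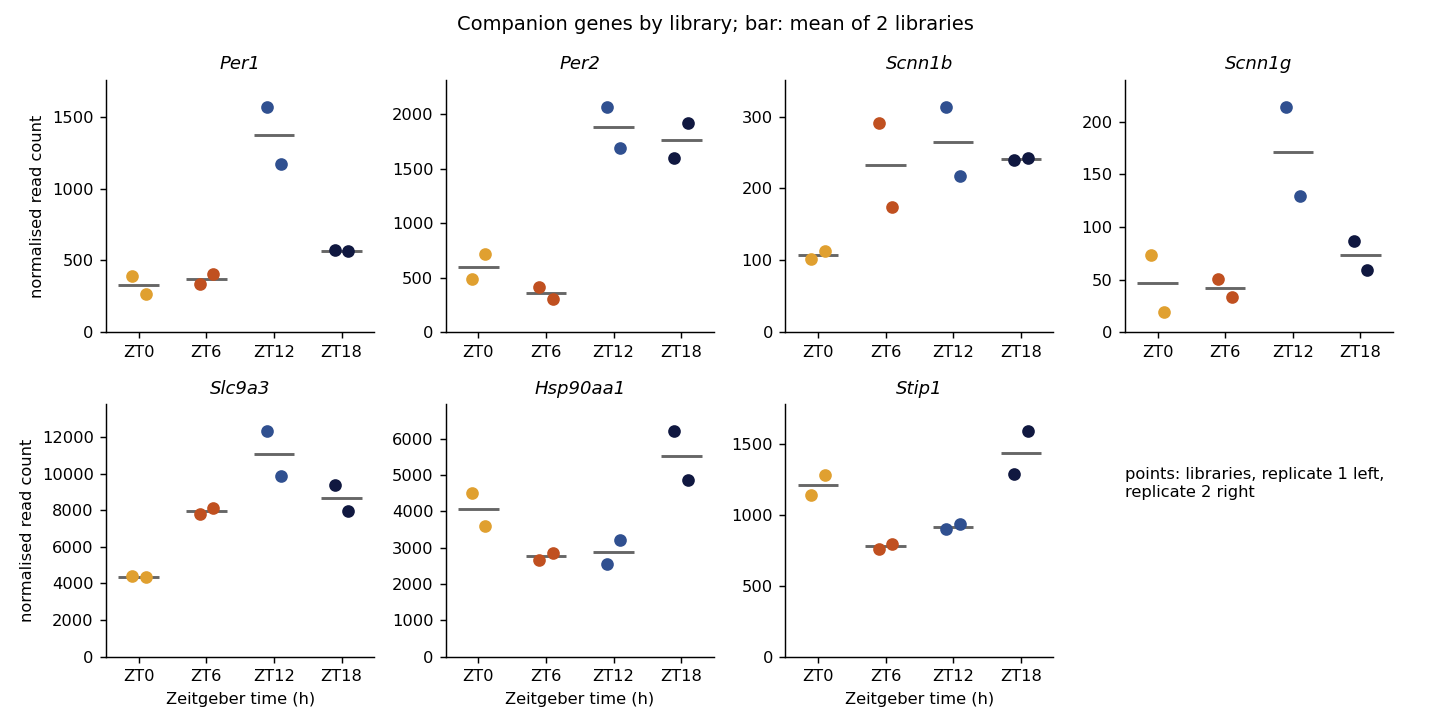
Normalised read counts of 7 companion genes in each library (points) against Zeitgeber time, with the mean of the 2 libraries as a bar and axes from 0. Per1, Slc9a3 and Scnn1g have their highest means at ZT12, and Hsp90aa1 and Stip1 have theirs at ZT18.

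The 12 receptor chaperones, HSP90, HSP70 and the proteins that load the receptor onto them, formed the list with the most even direction. From ZT0 to ZT12 the median log2 fold change was -0.31, with the lower mean at ZT12 in 12 of 12 genes, and from ZT6 to ZT18 it was 0.41, with the higher mean at ZT18 in 11 of 12. The median ran from -0.43 to -0.22 and from 0.35 to 0.59 when each library was left out. Libraries did not overlap in 7 lower at ZT12 and 9 higher at ZT18, beside 20.3% and 19.2% of all genes. In limma and edgeR 0 of the 12 were called. An unadjusted p under 0.05 was held by 2 for ZT12 against ZT0 (9.96% of all genes), 6 for ZT18 against ZT6 (6.71%) and 5 in the 24 h fit (9.15%). DESeq2 called 4 in the 24 h fit (1.62% of genes given an adjusted p) and 4 for ZT18 against ZT6 (0.504%). The 8 early-response genes, which rise with handling before lysis, summed to 12946 and 12589 in the ZT0 libraries, 14375 and 9890 in those of ZT6, 7738 and 11520 in those of ZT12 and 14406 and 12281 in those of ZT18, lower at ZT12 than at ZT0 like the chaperones and overlapping between ZT6 and ZT18. Their part in the chaperone values was not tested. Hsp90aa1, the inducible HSP90, was 4513 and 3601 in the ZT0 libraries, 2676 and 2851 in those of ZT6, 2543 and 3213 in those of ZT12 and 6200 and 4865 in those of ZT18. Stip1, the adaptor between HSP70 and HSP90, was 1139 and 1277 in the ZT0 libraries, 759 and 794 in those of ZT6, 896 and 932 in those of ZT12 and 1285 and 1585 in those of ZT18. Their log2 fold changes of ZT18 against ZT6 were 0.99 (SE 0.20) and 0.88 (SE 0.17), both with an adjusted p of 0.387 in limma, and the fitted peaks of 19.8 and 19.6 h came after that of Sgk1.

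In the 3 smaller lists 0 genes were called by limma, edgeR or DESeq2 in the 24 h fit or in either comparison. The unadjusted p was under 0.05 for ZT12 against ZT0 in 4 of 10 coregulators, 1 of 8 genes of steroid metabolism and 1 of 5 relatives of the members, and for ZT18 against ZT6 in 0, 0 and 1, beside 9.96% and 6.71% of all genes. The coregulators, which carry acetyltransferase or corepressor activity to the receptor, had a median of 0.32 for ZT12 against ZT0, which was 0.19 once ZT12 replicate 1 was left out and 0.44 once ZT12 replicate 2 was. Ep300 was 2110 and 1400 at ZT12 against 1136 and 922 at ZT0, a change of 0.75 (SE 0.22) that was 0.45 without ZT12 replicate 1, and Ncoa1 was 1121 and 938 against 682 and 630, a change of 0.65 (SE 0.19), both with an adjusted p of 0.381. Abcb1a, the drug and steroid exporter, was highest in ZT12 replicate 1 with 35383 and lowest in ZT18 replicate 1 with 11492, and Star, the cholesterol carrier of steroid synthesis, stayed between 35.8 and 76.9. Of the relatives, Sgk3 fell to 5.13 in ZT18 replicate 1 and was 21.9 to 46.8 elsewhere, and Tsc22d4 was 1290 and 1365 at ZT12 against 1866 and 2099 at ZT0.

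**Figure D5:**
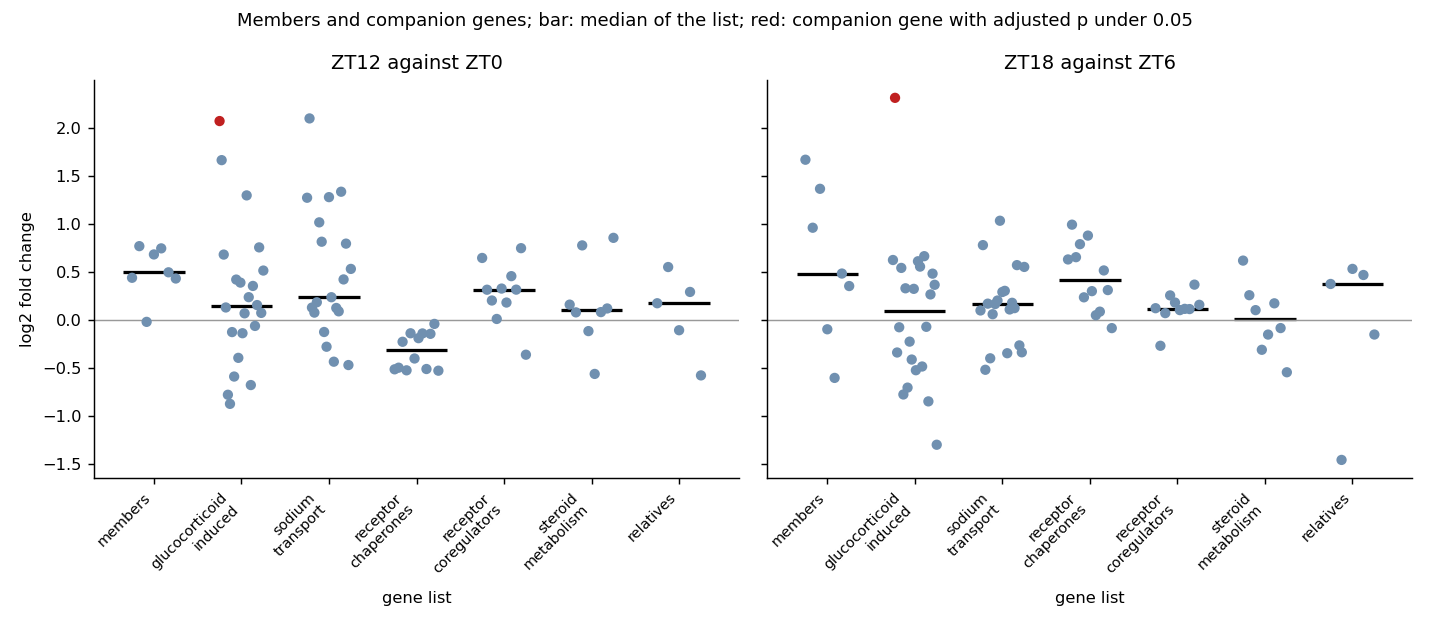
Log2 fold changes of the 7 genes and of the 76 companion genes by list, for ZT12 against ZT0 on the left and ZT18 against ZT6 on the right, with the list median as a bar and called companion genes in red. The chaperones lie below 0 on the left, with a median of -0.31, and nearly all above 0 on the right, with a median of 0.41.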

How the data were processed

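RNA was sequenced from colonic crypts in 8 libraries, 2 at each of 4 time points. Per the study's methods and the labels, the authors aligned paired-end reads with STAR to GRCm38 and used DESeq2. The kit is named differently in the labels and the methods. The counting and annotation are not given in the sources used here. The deposited table holds normalised counts, a signal in which the authors' counts are divided by 1 factor per library. Since every value fell within 0.05 of a whole number of reads, the depth of 14722342 to 25159440 reads could be recovered. The deposited columns of the authors' own comparison (base mean, fold change, standard error, statistic and p-values) were not used.

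Values were analysed as log2(value + 1) for the 13503 genes with a mean of at least 10. limma 3.58.1 in R 4.3.3 fitted the 4 group means, or a cosine and sine of 24 h, with a trended empirical Bayes variance, and p-values were adjusted by Benjamini-Hochberg over all genes tested at 0.05. The pseudocount shrinks fold changes of low genes. All tests were two-sided. Alternatives included edgeR 4.0.16 and DESeq2 1.42.0 on the recovered reads, other scalings, pseudocounts of 0.1 and 5, other filters and leaving out each library. A count of 0 allows up to 3 reads, or 2.41 to 3.70 normalised counts, and such floors cover counting error only. Captions describe more mice at each time than there are libraries, and how mice map to libraries is not given in the sources used here, so p-values measure the spread between these libraries.

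The members and lists were chosen with earlier results of these data known. Named were the 7 members, companion genes called in the 24 h fit or either comparison, the 2 genes with the largest amplitude in each of the 6 companion lists, the 3 highest marker genes of uneven lists, and the 3 genes most like Sgk1, Fkbp5 and Tsc22d3; others are said to be picked after their values were seen. Gene annotation was GENCODE M21, and promoter windows were from RefSeq (GRCm38.p6), with 11 windows for 4 of the members. The fits were tested on simulated data.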

Additional observations from a re-analysis of the deposited data

How the results depend on the processing

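Counts of genes called were unsteady. Of 315 recomputed member values 300 stayed within 1 SD of the libraries and 15 moved. Many could not move, since a comparison keeps its value when a library of another time is left out. The SD is also wide for some genes. Tsc22d3 at ZT12 against ZT0 went from -0.02 to -0.37 or 0.33 and counted as staying. How steady the members were is therefore not read from this count. In the order 24 h fit, 4 time points, ZT12 against ZT0 and ZT18 against ZT6, the 16, 12, 9 and 6 genes called became 189, 217, 135 and 68 with DESeq2, and 1, 2, 1 and 1 without the variance trend. edgeR called 5 for ZT12 against ZT0. Fits of only the 4 libraries compared called 5 and 0 for the last pair. Without ZT0 replicate 2 and ZT12 replicate 1, an alternative chosen after seeing the data, the counts were 10, 1, 2 and 0. A rank test over the 8 libraries called 0 genes, 278 having p under 0.05, and its smallest possible p is 0.0190. Leaving out each library gave 6 to 18, 1 to 16, 5 to 13 and 0 to 9, a lone library being assumed to vary like the others. The lowest came without ZT12 replicate 2 for the 24 h fit, without ZT6 replicate 1 for the 4 time points and ZT18 against ZT6, and without either ZT6 library or ZT12 replicate 2 for ZT12 against ZT0. The 1 companion gene called in the 24 h fit became 9 with DESeq2, 0 without the trend, 0 in the rank test and 0 to 1 without each library. For ZT12 against ZT0 the 1 became 5 with DESeq2, 0 with edgeR, without the trend, with only 4 libraries and without the 2 libraries, and 0 to 2 without each library. For ZT18 against ZT6 it became 5 with DESeq2, 0 without the trend, with only 4 libraries and without the 2 libraries, and 0 to 1 without each library. The cause was not tested.

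Deviations of same-numbered libraries from their time-point means correlated at -0.29 to 0.22 over all genes. These values cannot decide whether libraries with the same number belong together, since every other difference between libraries enters them. The main fits used no pairing. A replicate block gave 12, 8, 8 and 9 genes called and 1 companion gene in each of the 3 tests, and called Sgk1 for ZT18 against ZT6.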
